A study of Arabidopsis thaliana with 45 samples.

Results

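CG windows overlapping transposable elements (TEs) are the 200 bp windows for which a deposited table of differentially methylated regions (DMRs) gave the CG context and named a TE. Of 2331 different CG windows in the tables, 253 met this rule, and 2078 named no TE. Rosettes of Arabidopsis thaliana (Columbia) from the P0, S1 and S2 generations were analysed by whole genome bisulfite sequencing, which reads unmethylated cytosines as thymines. Plants received γ0 (background radiation, 0 mGy/h), γ30 (30 mGy/h) or γ110 (110 mGy/h) for 14 days from a Cs-137 gamma source, with 5 samples in each of the 9 conditions and 45 in all. In each line, S1 descended from P0 plants and S2 from S1 plants kept at the same dose rate, so that P0 was the first generation exposed in the γ30 and γ110 lines, and the γ0 plants grew in a chamber of their own, so that chamber and radiation cannot be told apart in comparisons with γ0. The 18 deposited tables compare pairs of groups, 10 hold rows and 9 list TE windows. Each gives 1 methylation level per group, a fraction from 0 to 1, and no value per sample. The spread between plants and the read coverage behind a level are therefore unknown here, no interval or test on a level can be given, and every level below is the authors' value for its group.

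TEs are repeated sequences that can move or copy themselves within the genome. In plants they carry methylation in the CG, CHG and CHH contexts, where H is any base but G. MET1 copies CG methylation onto the new strand after replication, CMT3 and CMT2 maintain non-CG methylation, and small RNAs guide the DRM2 enzyme to short or gene-near TEs. ROS1 and related glycosylases remove methylation. Arabidopsis TEs are densest around the centromeres, and many shorter ones lie on the chromosome arms next to genes.

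The 253 windows named 299 different TEs. A single TE was named by 205 windows, 41 named 2 and 7 named 3, and since a TE may be only touched by a window, the part of each window that is TE sequence was not analysed here. All windows held a CG in the RefSeq sequence of the TAIR10.1 assembly, from which the windows below were read. They were picked among the windows named in this report that hold no non-coding exon sequence. Some were listed in the most tables, some had the largest differences of S2γ30 from P0γ30 or S1γ30, and some held many CG sites. AT1TE06780 is shown for a TE-encoded gene and AT1TE66645 for an intron of ESP. The sequences let the number and spacing of the sites be seen. Each is the forward strand, 5′ to 3′, in lower case with every CG in capitals. Coordinates are those of the tables (TAIR10), as chr3:11097201-11097400 for AT3TE46170, chr3:3750201-3750400 for AT3TE15805, chr5:8530201-8530400 for AT5TE30860, chr4:5734001-5734200 for AT4TE24045, chr4:7154601-7154800 for AT4TE31075, chr4:7810801-7811000 for AT4TE34260, chr1:2072001-2072200 for AT1TE06780, chr3:14095601-14095800 for AT3TE57770, chr5:15105401-15105600 for AT5TE54610 and chr1:20172801-20173000 for AT1TE66645.
AT3TE46170: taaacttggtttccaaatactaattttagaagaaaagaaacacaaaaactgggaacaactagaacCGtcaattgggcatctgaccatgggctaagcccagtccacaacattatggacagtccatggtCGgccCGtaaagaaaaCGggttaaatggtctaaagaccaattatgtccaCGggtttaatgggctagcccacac
AT3TE15805: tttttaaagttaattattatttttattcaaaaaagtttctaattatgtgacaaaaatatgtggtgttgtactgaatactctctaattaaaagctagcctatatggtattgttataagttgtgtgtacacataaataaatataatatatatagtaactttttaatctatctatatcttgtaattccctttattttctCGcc
AT5TE30860: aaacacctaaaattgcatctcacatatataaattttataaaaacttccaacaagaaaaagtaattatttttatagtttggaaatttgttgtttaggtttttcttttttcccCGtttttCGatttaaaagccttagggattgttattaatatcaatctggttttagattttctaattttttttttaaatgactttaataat
AT4TE24045: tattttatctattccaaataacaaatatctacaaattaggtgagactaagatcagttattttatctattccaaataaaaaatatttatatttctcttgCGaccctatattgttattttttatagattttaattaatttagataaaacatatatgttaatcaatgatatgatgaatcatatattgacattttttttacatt
AT4TE31075: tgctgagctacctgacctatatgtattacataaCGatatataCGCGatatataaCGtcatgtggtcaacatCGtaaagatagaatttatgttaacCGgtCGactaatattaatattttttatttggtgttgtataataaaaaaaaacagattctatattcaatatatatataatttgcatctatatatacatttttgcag
AT4TE34260: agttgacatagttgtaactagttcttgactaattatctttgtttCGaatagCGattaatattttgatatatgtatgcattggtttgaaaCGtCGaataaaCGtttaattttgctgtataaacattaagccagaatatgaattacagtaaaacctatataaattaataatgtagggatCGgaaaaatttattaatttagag
AT1TE06780: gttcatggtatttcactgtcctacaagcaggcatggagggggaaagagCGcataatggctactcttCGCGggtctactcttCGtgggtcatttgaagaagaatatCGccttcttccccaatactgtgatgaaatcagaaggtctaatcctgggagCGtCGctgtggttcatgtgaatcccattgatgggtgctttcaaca
AT3TE57770: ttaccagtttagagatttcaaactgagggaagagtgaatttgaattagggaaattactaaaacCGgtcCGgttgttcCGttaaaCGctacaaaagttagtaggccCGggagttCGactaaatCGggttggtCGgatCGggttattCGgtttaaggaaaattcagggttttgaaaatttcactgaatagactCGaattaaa
AT5TE54610: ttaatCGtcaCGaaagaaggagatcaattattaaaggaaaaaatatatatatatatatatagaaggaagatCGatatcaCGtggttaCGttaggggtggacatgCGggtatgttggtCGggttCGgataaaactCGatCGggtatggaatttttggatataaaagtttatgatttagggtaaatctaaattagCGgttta
AT1TE66645: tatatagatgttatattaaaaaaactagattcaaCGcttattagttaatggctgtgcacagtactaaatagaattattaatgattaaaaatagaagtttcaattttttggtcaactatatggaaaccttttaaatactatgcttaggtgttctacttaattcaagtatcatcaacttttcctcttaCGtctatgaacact

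The sequences differ most in how many CG sites carry the level. AT4TE24045 holds 1 CG, so that its level is that of 1 site. AT3TE15805 also holds 1, but the cytosine of a second CG is the window's last base, whereas AT3TE57770 and AT5TE54610 hold 11. Over all 253 TE windows the median was 2 CG sites, 59 windows (23.3%) held a single CG and 71 held 2. In 3 of the 59 a further CG lay across the window's edge. Among the 187 windows without a TE outside protein-coding genes, the median was 3 and 17.6% held a single CG, and among the 1891 without a TE in such genes the median was 3 and 5.66% held a single CG. Of the genome's 200 bp windows with a CG, 10.2% held 1 and the median was 4. Median G+C content was 26.5% in the TE windows, 30.5% in windows without a TE outside genes and 38.5% in those in genes, against 36.5% for the genome windows. CHG sites followed the same order, with medians of 2, 3 and 7. The TE windows were thus A+T-rich and poor in CG sites, also beside the other windows outside genes.

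**Figure D1:**
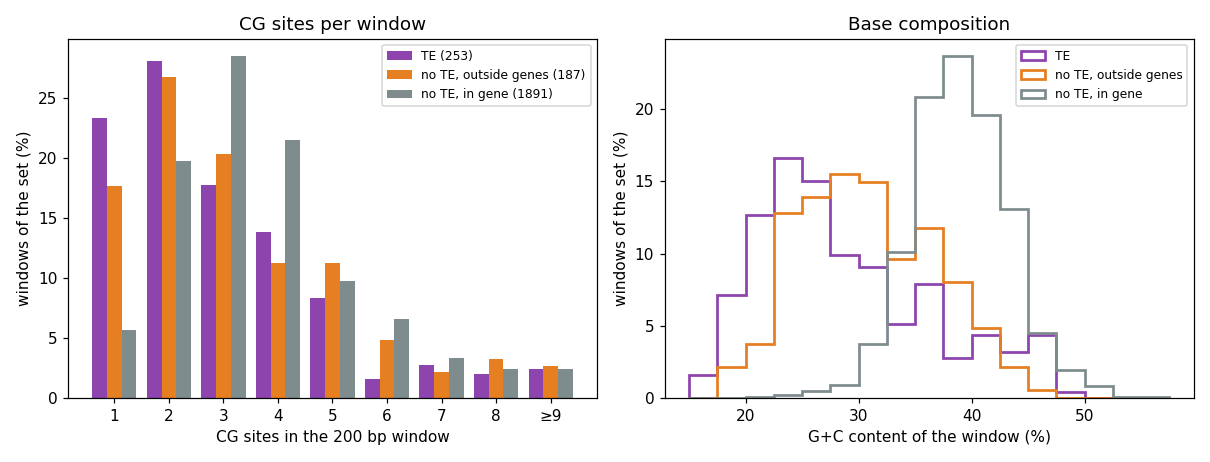
Left, share of windows (%) by the number of CG sites in the window for the 253 TE windows, the 187 windows without a TE outside genes and the 1891 without a TE in genes. Right, share of windows (%) by G+C content (%); the medians were 26.5, 30.5 and 38.5%, and the TE windows reach furthest to the left.

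Most windows lay outside genes. Of the 253 TE windows, 30 (11.9%) overlapped a protein-coding gene of the annotation, against 91.0% of the windows without a TE and 58.6% of the genome windows with a CG. Within these 30, 11 touched coding sequence, 10 touched only non-coding exon sequence and 9 lay entirely in an intron. A further measure of TE identity that the rule did not use was the overlap with annotated pseudogenes, a class that in Arabidopsis includes degenerate TE genes. It was found for 35 TE windows (13.8%), for 13 of the 187 windows without a TE outside genes (6.95%) and for 0.317% of those in genes. In pericentromeres, taken as the runs of 500 kb bins with under 25% protein-coding sequence, lay 44 TE windows (17.4%), against 28 of the 187 windows without a TE outside genes, 1.16% of those in genes and 13.2% of the genome windows. Most TE windows were therefore on the chromosome arms. Chromosomes 1 to 5 held 59, 61, 60, 33 and 40 TE windows. Chromosome 2 held 24.1% of them against 16.5% of the genome windows, chromosome 3 held 23.7% against 19.8%, and chromosome 5 held 15.8% against 22.7%.

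Outside genes there were 223 TE windows, at a median distance of 1229 bp from the nearest protein-coding gene, and 971 bp for the 187 windows without a TE. Within 2000 bp of a gene were 146 TE windows (57.7% of all 253), 90 of them upstream and 56 downstream. The other 77 lay further away, the most distant at 79085 bp. The tables placed 132 TE windows in a promoter, 28 in a gene body and 93 in neither. By the strands of the annotation, 69 of the 132 promoter windows lay within 2000 bp upstream of the nearest gene, 30 lay downstream, 11 overlapped a protein-coding gene and 22 were further off. The nearest protein-coding gene is not always the gene that the tables list, so these counts do not give the side of the listed gene. Some promoter windows did lie downstream of their listed gene, as AT1TE70200 at 448 bp from AT1G56680. Of the 28 gene-body windows, 16 overlapped an annotated pseudogene and 10 a protein-coding gene.

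**Figure D2:**
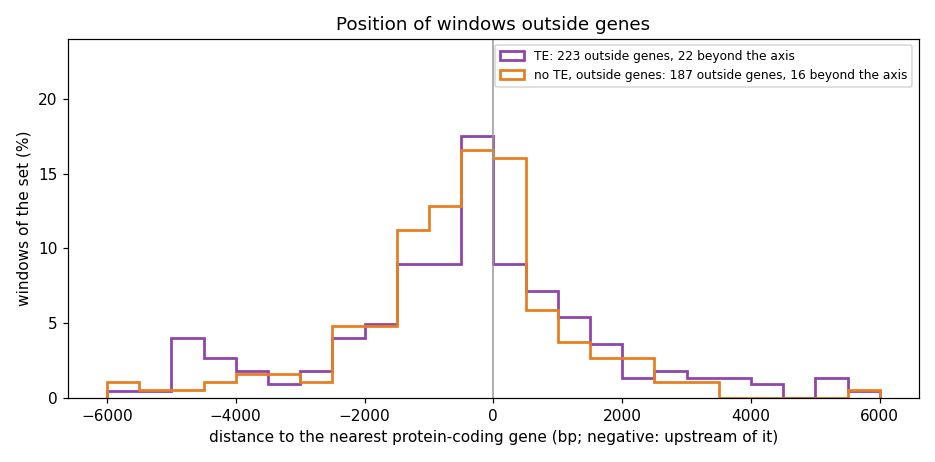
Distance in bp from each window outside protein-coding genes to the nearest such gene (negative values, upstream of the gene) against the share of windows (%) in 500 bp steps, for 223 TE windows and 187 windows without a TE. Both peak next to genes and lean to the upstream side.

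The question of the γ30 comparisons between generations was how methylation changed from P0 to S1 to S2 under the same dose rate. A window is called hypermethylated where the group named second has the higher level. Every listed window had passed the authors' threshold in that table, and the smallest difference among the TE windows was 0.204. A window absent from a table either did not pass or was not assessed, so levels of groups that no table compares for a window are set side by side below as a description. P0γ30 vs. S1γ30 listed 24 TE windows (9.49% of the 253, against 7.89% of all CG windows), P0γ30 vs. S2γ30 listed 32 (12.6% against 11.7%) and S1γ30 vs. S2γ30 listed 183 (72.3% against 79.1%). The shares of the TE windows lay near those of all CG windows. All 3 comparisons share groups with each other, so their lists are not independent.

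In P0γ30 vs. S1γ30, 11 of 24 TE windows were hypermethylated, against 49.5% of all CG windows listed there. Outside genes it was 10 of 21 with a TE (47.6%) and 3 of 10 without one (30.0%). The hypermethylated ones had a median level of 0.0569 in P0γ30 and 0.601 in S1γ30, and the 13 hypomethylated ones 0.502 and 0.0742. In P0γ30 vs. S2γ30, 28 of 32 (87.5%) were hypermethylated, against 62.5% of all CG windows, 81.5% of the 27 without a TE outside genes and 56.3% of the 213 without a TE in genes. Their median rose from 0.0491 in P0γ30 to 0.607 in S2γ30, and 21 of the 28 had a P0γ30 level under 0.1. In S1γ30 vs. S2γ30, 110 of 183 (60.1%) were hypermethylated, against 56% of all CG windows, 61.3% of the 137 without a TE outside genes and 55.1% of the 1524 without a TE in genes. Medians were 0.0779 in S1γ30 and 0.651 in S2γ30 for the hypermethylated windows, and 0.611 and 0.0676 for the 73 hypomethylated ones. Whether the shares differ between windows with and without a TE was not tested.

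Between dose rates, S1γ0 vs. S1γ30 listed 20 TE windows (7.91% of the 253, against 5.53% of all CG windows), 11 of them hypermethylated (55.0%, against 51.2% of all CG windows there). Outside genes it was 10 of 17 with a TE (58.8%) and 4 of 14 without one (28.6%). S2γ0 vs. S2γ30 listed 78 (30.8% against 33.1%). There, 58 (74.4%) were hypermethylated, against 59.4% of all CG windows, 67.8% of the 59 without a TE outside genes and 56.8% of the 634 without a TE in genes. The hypermethylated TE windows had medians of 0.0993 in S2γ0 and 0.677 in S2γ30, and the 20 hypomethylated ones 0.622 and 0.0594. In both directions the lower of the 2 median levels was below 0.1. This table shares S2γ30 with the comparisons of S2γ30 with P0γ30 and S1γ30.

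**Figure D3:**
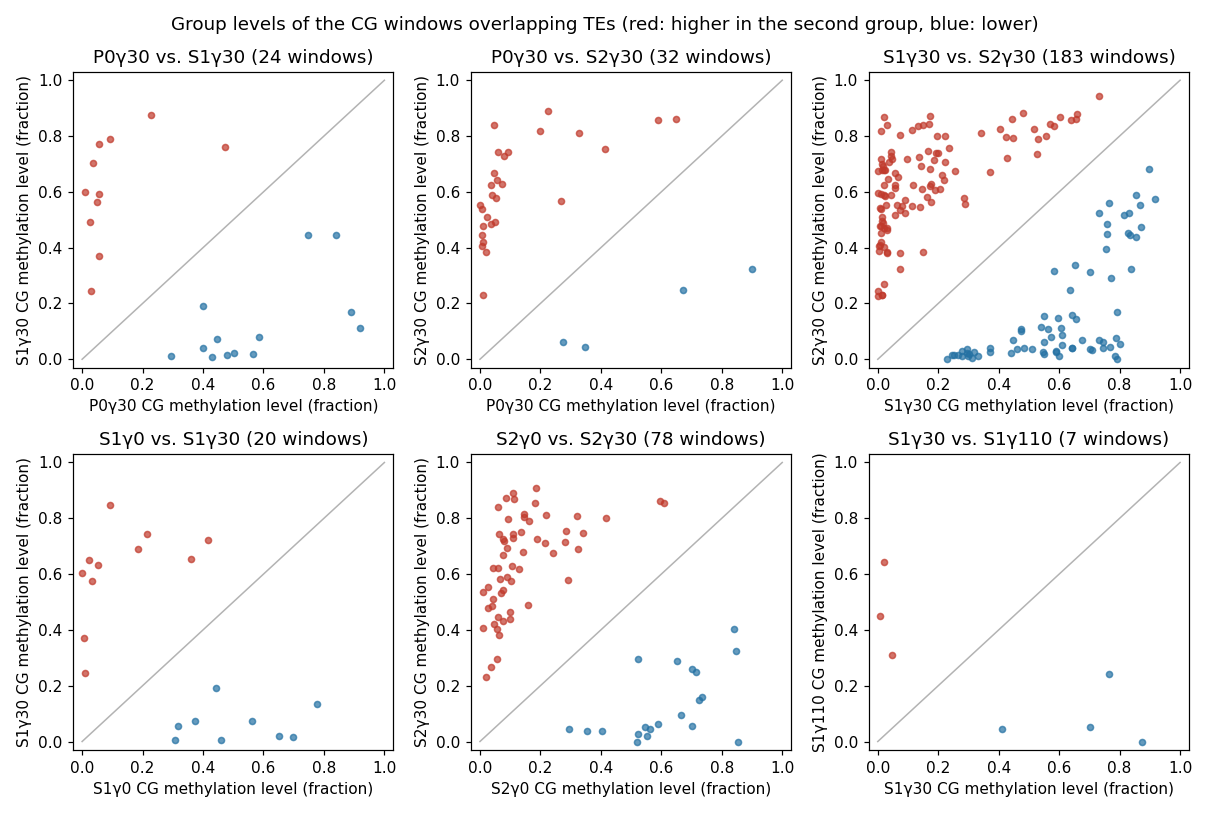
CG methylation level (fraction) of each TE window in the group named first (x axis) and second (y axis) of 6 comparisons; red points are higher and blue points lower in the second group, and the grey line marks equal levels. Most red points lie along the left edge and most blue points along the bottom, where the lower level is under 0.1 (59 of the 110 red and 42 of the 73 blue points in S1γ30 vs. S2γ30).

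Direction was also counted by position. In S1γ30 vs. S2γ30, 41 of 63 TE windows within 2000 bp upstream of a gene (65.1%) were hypermethylated, 15 of 36 downstream (41.7%) and 39 of 62 further away (62.9%). In S2γ0 vs. S2γ30 these counts were 24 of 31 (77.4%), 9 of 15 (60.0%) and 17 of 22 (77.3%). In P0γ30 vs. S2γ30 they were 13 of 14, 2 of 4 and 6 of 6, and in S1γ0 vs. S1γ30 they were 4 of 6, 4 of 8 and 2 of 3. The downstream windows had the lowest share in each of these comparisons, which share groups with each other. They had the highest in P0γ30 vs. S1γ30, with 4 of 5 against 4 of 11 upstream and 2 of 5 further away. Direction by side was not counted for windows without a TE. Pericentromeric TE windows were hypermethylated in 20 of 35 cases (57.1%) in S1γ30 vs. S2γ30, and those on the arms in 90 of 148 (60.8%). Recurrence was like that of other windows: 181 TE windows (71.5%) were listed in 1 table, 50 (19.8%) in 2, 20 (7.91%) in 3 and 2 in 4, against 68.9%, 22.2% and 8.18% of the windows without a TE for 1, 2 and 3 tables.

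Over the tables that list them, TE windows spanned a wide range of levels. The lowest listed level of a window was under 0.1 in 148 of 253 (58.5%) and the highest was over 0.8 in 50 (19.8%). For windows without a TE outside genes these shares were 65.2% and 17.6%, and for those in genes 43.8% and 23.8%. Only 10 TE windows had both a level under 0.1 and one over 0.8. Median levels over the windows listed for a group were 0.0849 in P0γ30 (54 windows), 0.312 in S1γ0 (20), 0.277 in S1γ30 (201), 0.144 in S2γ0 (79) and 0.538 in S2γ30 (235). Since each group is listed for different windows, these medians describe the lists and not the TEs of the genome. With at least 3 CG sites the median was 0.430 in P0γ30 and 0.264 in S2γ0. P0γ0 and P0γ110 had no TE window in any table.

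The size of the difference varied with the number of CG sites. In S1γ30 vs. S2γ30 the median absolute difference was 0.595 for the 45 TE windows with 1 CG, 0.469 for the 45 with 2, 0.386 for the 57 with 3 to 4 and 0.383 for the 36 with 5 or more. Windows without a TE in genes fell more steeply, from 0.759 with 1 CG to 0.251 with 5 or more. With 5 or more sites the quartiles of the TE windows were 0.287 and 0.445, and those of the genic windows 0.223 and 0.302. Windows without a TE outside genes were close to the TE windows, with 0.527 for 1 CG and 0.331 for 5 or more. Over all windows of the table, the medians were 0.449 for TE windows, 0.416 for the others outside genes and 0.283 for those in genes. In S2γ0 vs. S2γ30 the 10 TE windows with 5 or more sites had a median difference of 0.524, near the 0.527 of the 21 with 1 CG. Windows without a TE outside genes also differed little there, with 0.470 for the 15 with 5 or more sites and 0.536 for the 10 with 1 CG. Direction showed no common order over the tables: of the TE windows with 1 CG, 34 of 45 (75.6%) were hypermethylated in S1γ30 vs. S2γ30, against 51.1% of those with 2 and 57.0% of those with 3 or more, while 55.3% of the 103 windows with 1 CG and no TE were. In S2γ0 vs. S2γ30 it was 17 of 21 with 1 CG, 17 of 21 with 2 and 24 of 36 with 3 or more. In P0γ30 vs. S2γ30 it was 11 of 11, 8 of 10 and 9 of 11. In P0γ30 vs. S1γ30 it was 2 of 5, 5 of 9 and 4 of 10, and in S1γ0 vs. S1γ30 it was 3 of 7, 5 of 6 and 3 of 7. TE windows with 1 CG thus had the highest or joint highest share in these comparisons with S2γ30, which share that group, but not in the others.

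**Figure D4:**
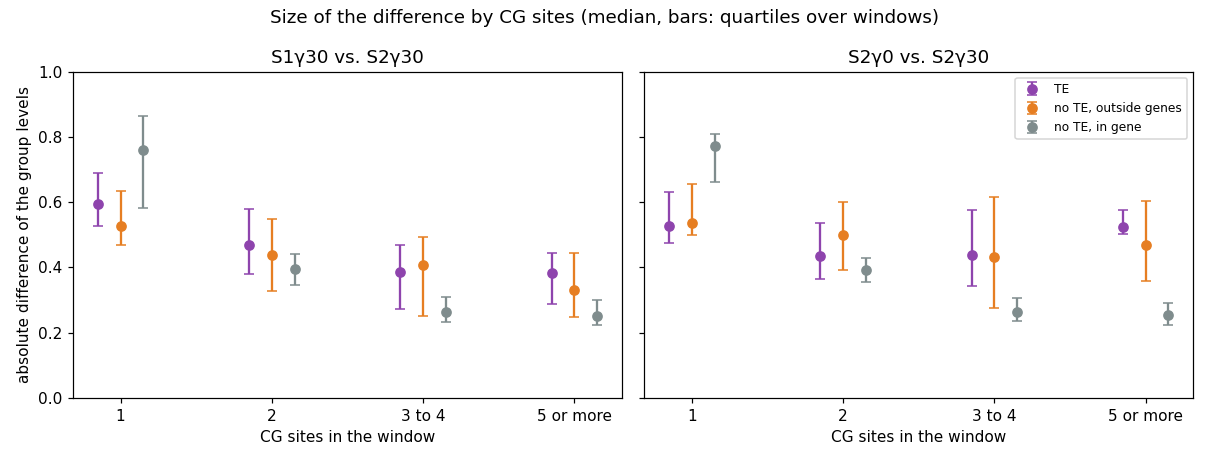
Median absolute difference of the 2 group levels (fraction) by the number of CG sites, for TE windows and for windows without a TE outside and in genes; bars give the quartiles over windows, not an error between plants. Windows in genes with 3 or more sites sit lowest, and TE windows stay near the other windows outside genes.

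A level in all 3 γ30 groups was given for 33 TE windows. A group stood apart when its level was further from the middle one of the 3 levels. S2γ30 was highest in 12 windows and lowest in 2, S1γ30 was highest in 8 and lowest in 9, and P0γ30 was lowest in 2 and highest in 0. Of the 270 windows without a TE with 3 levels, S2γ30 was highest in 39.3% and lowest in 23.0%, S1γ30 highest in 18.1% and lowest in 17.8%. In the 12 windows where S2γ30 was highest, the median level was 0.0299 in P0γ30, 0.0247 in S1γ30 and 0.572 in S2γ30. The 11 of them with an S2γ0 level had a median of 0.0441 there, and no level outside S2γ30 in these windows was above 0.2. Each of these other levels is given because a comparison listed the window as differing from S2γ30. The gap to S2γ30 therefore follows from the listing. In the 17 windows where S1γ30 stood apart, P0γ30 and S2γ30 are the closer pair by the way the windows were grouped. The medians were 0.0525, 0.596 and 0.0315 in P0γ30, S1γ30 and S2γ30 where S1γ30 was highest, and 0.502, 0.0742 and 0.542 where it was lowest.

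**Figure D5:**
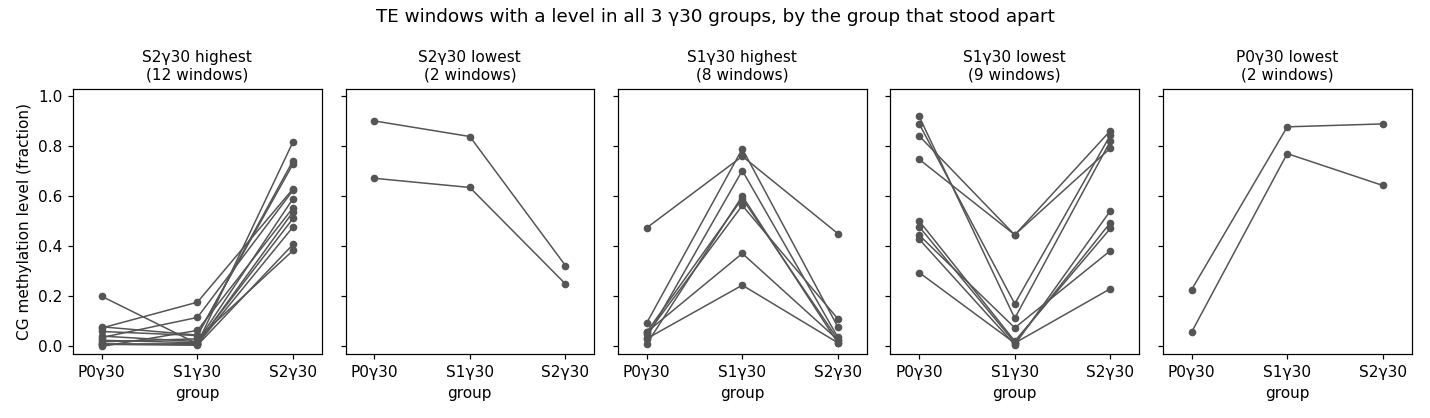
CG methylation level (fraction) of the 33 TE windows with a level in P0γ30, S1γ30 and S2γ30, 1 line per window, in panels by the group that stood apart. The 12 windows of the first panel stay at or below 0.2 in P0γ30 and S1γ30 and lie between 0.383 and 0.817 in S2γ30.

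Several windows were high in S2γ30 and low in the other listed groups. AT4TE31075 had the largest increase in P0γ30 vs. S2γ30. It was named by neighbouring windows upstream of AT4G11900, which encodes an S-locus lectin protein kinase. The window at 920 bp with 7 CG sites had a level of 0.0468 in P0γ30, 0.0586 in S2γ0 and 0.840 in S2γ30. Its neighbour with 1 CG, 720 bp from the gene, was at 0.00820 in P0γ30, 0.0108 in S1γ30, 0.0106 in S2γ0 and 0.538 in S2γ30, so both windows rose together.

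The windows of AT1TE66645 lie in an intron of ESP, the epithiospecifier protein. This protein steers the breakdown of glucosinolates, the defence compounds of the mustard family, towards nitriles. One of the windows (1 CG) was at 0.0595 in P0γ30, 0.0435 in S1γ30, 0.110 in S2γ0 and 0.742 in S2γ30. The adjoining window (2 CG) was at 0.168 in S1γ30 and 0.746 in S2γ30. AT3TE42295, upstream of AT3G27480, a gene for a C1-domain protein, was at 0.0354 in P0γ30, 0.116 in S1γ30, 0.0441 in S2γ0 and 0.624 in S2γ30 in a window with 8 CG sites. AT5TE07635, 315 bp upstream of AT5G06800, a gene for a myb-like regulator, was at 0.0411, 0.0191, 0.0896 and 0.590 in the same order of groups. AT1TE36485 (1 CG) was at 0.0783 in P0γ30, 0.0450 in S1γ30, 0.109 in S2γ0 and 0.729 in S2γ30. In all of these the S2γ30 level lay above the other listed groups, each of which was listed because it differed from S2γ30. Levels in S1γ0, S1γ110 and S2γ110 were not given for these windows.

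Going the other way, AT4TE34260, in an intron of AT4G13440, a gene for a calcium-binding EF-hand protein, was at 0.901 in P0γ30, 0.839 in S1γ30, 0.848 in S2γ0 and 0.323 in S2γ30. AT2TE23310, downstream of the receptor kinase gene SERK4 and named here because it is the other of only 2 such windows, was at 0.672, 0.635, 0.713 and 0.249. Both windows, with 6 and 4 CG sites, were lowest in S2γ30, which still held an intermediate level. The largest fall in S1γ30 vs. S2γ30 and in S2γ0 vs. S2γ30 was that of AT4TE24045, 1806 bp upstream of AT4G08940, a gene for a ubiquitin carboxyl-terminal hydrolase, with 0.790 in S1γ30, 0.855 in S2γ0 and 0 in S2γ30. The level rests on 1 CG. The largest rise from S1γ30 to S2γ30 was that of AT5TE30860, 515 bp upstream of AT5G24830, with 0.0190 in S1γ30, 0.112 in S2γ0 and 0.869 in S2γ30.

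Among the windows where S1γ30 stood apart, AT3TE15805 was listed in 4 tables. It lies 1108 bp upstream of AT3G11870, a gene for a protein like the stress sensor IRE1. Its level was 0.429 in P0γ30, 0.459 in S1γ0, 0.00654 in S1γ30, 0.449 in S1γ110 and 0.542 in S2γ30, low in S1γ30 alone among the listed groups. AT4TE61975, 537 bp upstream of a zinc finger gene (AT4G26030), had the same form at 1 CG, with 0.651 in S1γ0, 0.0204 in S1γ30, 0.643 in S1γ110 and 0.625 in S2γ30. AT2TE40015, 290 bp upstream of EME1B, which encodes a partner of the MUS81 endonuclease in recombination repair, had the largest fall in P0γ30 vs. S1γ30, with 0.919 in P0γ30, 0.112 in S1γ30 and 0.820 in S2γ30. Its window holds 1 CG. AT3TE62965 was low in S1γ30 in both of its windows, 1200 bp apart: 0.502, 0.0211 and 0.471 in P0γ30, S1γ30 and S2γ30 in the first, and 0.479, 0.0145 and 0.495 in the second.

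High in S1γ30 alone among its listed groups was AT1TE39010, with 0.0345 in P0γ30, 0.703 in S1γ30, 0.0529 in S1γ110 and 0.0359 in S2γ30. AT2TE18700 (1 CG) had levels of 0.0933, 0.789 and 0.0769 in P0γ30, S1γ30 and S2γ30, and AT5TE33565 (2 CG) had 0.00952, 0.601 and 0.0134. The window of AT1TE06780 overlaps coding sequence of MUG3, annotated as a MuDR family transposase and part of a family of domesticated Mutator-like genes. It was the only TE window that overlapped a gene found by words for TE-encoded products. Its 7 CG sites had a level of 0.0569 in P0γ30, 0.00594 in S1γ0, 0.371 in S1γ30 and 0.0258 in S2γ30. The other 3 groups were all below 0.1. P0γ30 stood apart in AT5TE16500 (1 CG), with 0.0569 in P0γ30, 0.770 in S1γ30 and 0.643 in S2γ30, the largest rise in P0γ30 vs. S1γ30. It also did in AT3TE54480, a pericentromeric window whose nearest gene encodes a Gag-Pol polyprotein, with 0.226 in P0γ30, 0.877 in S1γ30, 0.110 in S2γ0 and 0.889 in S2γ30. The largest rise in S1γ0 vs. S1γ30 was that of AT1TE77450 (1 CG), from 0.0918 to 0.846. The largest fall there was that of AT1TE70200 (3 CG), next to a chitinase family gene, from 0.699 to 0.0154. In S2γ0 vs. S2γ30, AT2TE15475 (1 CG) rose most, from 0.0854 to 0.873.

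Within protein-coding genes, 15 of 22 TE windows (68.2%) were hypermethylated in S1γ30 vs. S2γ30, against 56% of all CG windows there, and 8 of 10 in S2γ0 vs. S2γ30, against 59.4%. For P0γ30 vs. S2γ30 it was 7 of 8, against 62.5%. For P0γ30 vs. S1γ30 it was 1 of 3 (49.5% of all CG windows), as for S1γ0 vs. S1γ30 (51.2%). Windows without a TE in genes had shares of 55.1%, 56.8%, 56.3%, 51.3% and 53.7% in these comparisons, in the same order. The genes in the rest of this paragraph were chosen after their values were seen. AT1TE70490, in coding sequence of AT1G57630, a gene for a TIR domain protein, was at 0.445 in P0γ30, 0.373 in S1γ0, 0.0742 in S1γ30 and 0.382 in S2γ30. Among these groups S1γ30 was lowest. The window of AT1TE70160 overlaps 46 bp of non-coding exon of PAP1, a MYB regulator of anthocyanin synthesis, and was at 0.0765 in S2γ0 and 0.433 in S2γ30. AT2TE33975, in an intron of VEL2, related to the vernalization protein VIN3, was at 0.0113 in P0γ30, 0.0457 in S2γ0 and 0.421 in S2γ30. AT2TE42995, at the methyl esterase gene MES1, was at 0.0809 in S1γ30 and 0.549 in S2γ30. AT1TE98665, at emb1427, went the other way, from 0.277 in S1γ30 to 0.0289 in S2γ30. AT5TE77640, in coding sequence of AT5G53150, a gene for a DnaJ domain protein, was high in both, at 0.897 and 0.681.

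At the higher dose rate few CG windows were listed, with or without a TE. S1γ30 vs. S1γ110 listed 7 of the 253 TE windows (2.77%), among 37 of all 2331 CG windows. Of the 7, 3 were hypermethylated, against 54.1% of all CG windows there. S1γ110 vs. S2γ110 listed 3 (1.19%), among 14 CG windows, and all 3 were hypermethylated, against 42.9%. The comparisons of S2γ110 with S2γ0 and with S2γ30 listed 1 TE window each, beside 4 and 14 windows without a TE. AT5TE62835 (1 CG), 1053 bp upstream of the phosphate transporter gene PHT1;6, was at 0.873 in S1γ30 and 0 in S1γ110. AT5TE33980 was at 0.763 and 0.243, AT5TE54805 at 0.413 and 0.0444, and AT4TE24315, next to the isoamylase gene ISA3 of starch breakdown, at 0.0472 and 0.309 in the same groups. For these 4 windows S1γ30 and S1γ110 alone were listed, so their levels in P0 and S2 are unknown here.

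Levels at both dose rates were listed for a few windows in S2. AT1TE65115 (1 CG) was at 0.0133 in S1γ30, 0 in S1γ110, 0.141 in S2γ0, 0.679 in S2γ30 and 0.605 in S2γ110. AT2TE48470, at AT2G26340, was at 0.588 in P0γ30, 0.599 in S1γ110, 0.610 in S2γ0, 0.856 in S2γ30 and 0.860 in S2γ110. In both windows S2γ30 and S2γ110 lay above S2γ0, although S2γ0 vs. S2γ110 listed neither of them. AT3TE46170 did otherwise, with 0.0734 in P0γ30, 0.176 in S1γ30, 0.106 in S2γ0, 0.629 in S2γ30 and 0.0776 in S2γ110. Among these groups S2γ30 alone was high. AT5TE57840, downstream of the ATPase gene AATP1, was at 0.0807 in S1γ110 and 0.753 in S2γ110, and AT5TE20315 at 0.686 in S2γ0 and 0.0115 in S2γ110.

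Of the 299 TEs, 290 were named by 1 window and 9 by 2. For 8 of the 9, both windows were listed in a common table. In 6 of these they moved the same way in every such table, but AT3TE48455 and AT4TE08920 held windows that moved in opposite directions in S1γ30 vs. S2γ30. In AT3TE48455, 1 window went from 0.331 to 0.0133 and the other, 5400 bp away, from 0 to 0.227. In AT4TE08920, 1 window went from 0 to 0.673 and the other, 1200 bp away, from 0.294 to 0.0220. Side by side, TE windows were alike: in the 13 pairs of a TE window and an adjoining listed window within 1 table, counted once for each table, of which 10 were pairs of TE windows, both moved the same way. AT1TE74260, at AT1G61105, a gene for a protein with a TIR domain as found in plant immune receptors, was named by adjoining windows. The one with 4 CG sites was at 0.0243 in P0γ30, 0.0146 in S1γ30, 0.0438 in S2γ0 and 0.511 in S2γ30, and the one with 1 CG at 0.561 in S1γ0, 0.0727 in S1γ30 and 0.803 in S2γ30. AT2TE35290, upstream of LBD8, a gene of the plant LOB domain family, was at 0.565 in P0γ30 and 0.0172 in S1γ30 in 1 window and at 0.141 in S1γ30 and 0.692 in S2γ30 in the adjoining one.

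The windows with the most CG sites were AT2TE06990 (13 sites, at AT2G04360), with 0.219 in S1γ30 and 0.641 in S2γ30, AT3TE57770 and AT5TE54610 (11 sites each). The window of AT3TE57770 lies 13 bp upstream of ARP6, a subunit of the SWR1 complex that places the histone variant H2A.Z. It was at 0.550 in S1γ30 and 0.156 in S2γ30. AT5TE54610 was at 0.841 in P0γ30, 0.445 in S1γ30 and 0.862 in S2γ30. CHG methylation was listed for 1 TE window, AT3TE46185 at AT3G29130, a gene for a kxDL motif protein. Its CG level was 0.890 in P0γ30, 0.170 in S1γ30 and 0.844 in S2γ30, and its CHG level was 0.249 in P0γ30 and 0.0136 in S1γ30. Both contexts were thus lower in S1γ30 than in P0γ30. AT3TE46170, high in S2γ30 alone among its listed groups, lies near the same gene.

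Of the other genes of the pathway, 36 for DNA methylation and demethylation (MET1, CMT3, DRM2, ROS1 and others) were looked up, and 0 had a TE window within 2000 bp, while 10 had a listed window without a TE. Of all 27444 protein-coding genes, 0.907% had a TE window within that distance and 12.1% another listed window. A gene outside the list, chosen after its values were seen, is AT4G08990, which the tables name MET2 and the annotation a DNA (cytosine-5-)-methyltransferase family protein. AT4TE24190, 381 bp upstream of it, was at 0.370 in S1γ30, 0.404 in S2γ0 and 0.0386 in S2γ30. Of 8 genes known for a methylated repeat within or beside them (such as FWA and SDC), 7 were matched in the annotation, 0 had a TE window and 3 had another listed window. Few of the listed TE windows had a close copy elsewhere. Genome windows that no comparison listed were not searched, so this does not extend to other TE sequence. By a search of the assembly for copies with at least 90% identity over at least 150 bp, 232 of 253 (91.7%) had none elsewhere and 21 (8.30%) had 1 or more, against 4.04% of the windows without a TE. AT3TE67735 had the most, 10 copies.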

How the data were processed

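Rosettes were sequenced by whole genome bisulfite sequencing. As the study's methods and the labels state, the authors mapped reads to TAIR10 with CLC Genomics Workbench in non-directional mode, called CG, CHG and CHH methylation separately with minimum site coverage and sample numbers, used CLC and bedtools to assign genes and TEs to windows, adjusted p-values in R 3.5.0 and kept windows past a threshold. The deposited levels are a fraction per group and 200 bp window, without depth or values per sample. Further columns hold the authors' differences, directions and p-values, which were not used. Of 18 tables, 8 hold a header alone.

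Entries of a window were merged, giving 429 entries in 349 pairs of window and table. The members and gene lists were chosen with earlier results of these data known. Levels of a group were identical in all tables listing a window. Genes, CG sites and sequences came from RefSeq TAIR10.1; 0 of 2331 windows lacked a CG there, against 90 when shifted by 1000 bp. Named windows were those in the most tables, with the largest differences, the most CG sites or a CHG entry, TEs with 2 windows (9 tied), tables with γ110, the S1γ30 windows furthest from both other generations, and TE-encoded or listed genes; others were chosen after their values were seen. No test was run, since windows are not replicates. Counting steps were tested on simulated data. Alternatives are given below. Copies were found with BLAST 2.17.0; Python 3.11.15, pandas 2.3.3 and SciPy 1.17.1 were used.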

Additional observations from a re-analysis of the deposited data

How the results depend on the processing

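The 15 results (hypermethylated shares in 5 comparisons, median levels in 5 groups, and positions and CG sites) were recomputed under 46 alternatives, and 41 values stayed within the exact 95% interval of the value reported, which treats windows as independent and covers no spread between plants. All 25 alternatives for the hypermethylated shares stayed within it: a difference over 0.30, every listed entry, at least 3 CG sites, windows outside genes, and neighbours joined within 200 bp. These alternatives reuse the same windows and the intervals are wide (25.6 to 67.2% in P0γ30 vs. S1γ30), so staying within them shows little. At 3 or more CG sites the share was lower in all 5 comparisons, as 42.9% in place of 55.0% in S1γ0 vs. S1γ30 and 66.7% in place of 74.4% in S2γ0 vs. S2γ30. With at least 3 CG sites, the median level was 0.430 in place of 0.0849 in P0γ30 and 0.264 in place of 0.144 in S2γ0; the cause was not tested. Windows outside genes within 1000 bp of one made up 37.5% in place of 57.7% within 2000 bp. The pericentromeric share of 17.4% became 5.53% with bins under 10% protein-coding sequence and 41.1% with bins under 40%, by construction. No paired analysis was possible because the tables hold no values per sample, and for the same reason no replicate could be left out.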
